A study of Mus musculus with 6 samples.

Results

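The genes described here are 8 genes of the purinergic and adenosine pathway, P2rx4, P2rx7, Adora2a, Nt5e, Cd38, Ada, Dpp4 and Art2b. They were chosen by name, with earlier results of these data known. All 8 were found among the 16749 genes listed in at least 1 library. The RNA came from flow-sorted CD8+ T cells of the iLN, as the submitters abbreviate the tissue, in C57BL/6 mice that carried tumors and had been given oxaliplatin, a platinum drug that damages DNA. The 3 WT libraries came from mice with the genotype Id2f/f, which carry floxed Id2 and no Cre, and the 3 knockout libraries, labelled ID2KO, from mice with the genotype Cd4creId2f/f. The sources used here do not give the age of the mice, the tumor or the time after treatment. Cre driven by Cd4 is active in thymocytes before the choice between the CD4 and CD8 lineages, so the deletion precedes the mature cells, and Cre and loss of Id2 cannot be told apart because no group had Cre alone. Nothing states that the samples of a group came from separate mice, so p-values describe only the sample-to-sample spread, part or all of which may be technical.

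ATP that leaves stressed or dying cells acts on P2X channels and P2Y receptors, and is a danger signal to immune cells. On cell surfaces CD39, encoded by Entpd1, degrades ATP to AMP and CD73, encoded by Nt5e, turns AMP into adenosine, which acts on the A2A receptor, encoded by Adora2a, to raise cAMP and restrain T cells. Adenosine is removed by uptake and by adenosine deaminase, encoded by Ada. Extracellular NAD feeds a parallel branch: CD38 consumes it, and the ADP-ribosyltransferase encoded by Art2b uses it to modify P2X7 on mouse T cells. Dpp4 encodes CD26, a surface peptidase that in humans binds adenosine deaminase.

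The libraries held between 7699181 and 8495123 expected counts, the reads that the RSEM program assigns to each gene. Levels are FPKM (fragments scaled by transcript length and by depth), given as mean ± SD with n = 3 libraries per group. Differences are log2 fold changes of knockout over WT from edgeR's quasi-likelihood test, with Benjamini-Hochberg adjusted p over the 10890 genes tested and a threshold of 0.05. Id2 itself stood between 146.76 and 370.98 FPKM in WT and between 1.67 and 2.64 in knockout, as labelled. The cells carried CD8 transcripts, with Cd8a between 196.14 and 231.77 FPKM in the 6 libraries. Of the 9 CD8 T cell markers, 8 were listed and none of them passed the test (0 at the threshold by edgeR), with summed levels of 3506.19 to 4086.96 FPKM in WT and 3316.43 to 4470.6 in knockout.

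Markers of other cell types were present, and some differed between the groups. The summed level of the 16 B cell markers, all of them listed, was 947.81 to 3708.86 FPKM in WT and 631.96 to 3030.24 in knockout, and 0 of 15 tested passed by edgeR. All 15 nevertheless had a log2 fold change below 0, with a median of -0.81. The 8 dendritic cell markers summed to 196.48 to 215.63 FPKM in WT and 113.27 to 159.45 in knockout, with 4 of 5 tested lower, Bst2 making up most of the sum and Clec9a at 0 in every library. Not all of them fell: Xcr1 overlapped between the groups, at 2.31 to 3.58 FPKM in WT and 2.04 to 3.37 in knockout. Siglech, near the floor, was higher in knockout, at 0.24 to 0.3 against 0.39 to 0.7. The 6 NK cell markers summed to 566.97 to 1300.72 and 30.06 to 75.02, nearly all of it Gzma, which CD8+ T cells also express, and the defining marker Ncr1 was at 0 in WT and at most 0.18 in knockout. The 8 gamma delta T cell markers summed to 12.01 to 22.21 and 46.05 to 71.59, with 2 of 3 tested higher and Trdc, Trgc1, Trgc2 and Trgc4 listed in no library, as was the alpha chain gene Trac. The 2 were Cd163l1 and 5830411N06Rik, whereas Blk did not pass by edgeR (log2 fold change -0.72, adjusted p = 0.418). The 6 CD4 and regulatory T cell markers summed to 62.71 to 79.53 and 90.6 to 96.2, mostly Ctla4, with 2 of 5 tested higher. Another 2 of the 5 had a log2 fold change below 0. Cd4 (1.22 to 2.97 FPKM in WT and 1.08 to 2.12 in knockout) and Foxp3 (3.38 to 3.65 and 3.06 to 4.21) overlapped between the groups. Zbtb7b, not tested, was lower in knockout, at 0.54 to 0.8 against 0.1 to 0.27. Sums overlapped between the groups for macrophage and neutrophil, plasma cell, and stromal and endothelial markers, of which 0 of 4, 1 of 5 and 1 of 2 tested were lower.

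Of the 8 genes, Adora2a alone passed the threshold. The A2A receptor gene fell by 36.4% in knockout cells, from 11.4 ± 1.12 to 7.32 ± 0.507 FPKM. No other gene of the 8 changed by this test, although Cd38 had a larger difference with a wider error, from 7.36 ± 2.94 to 4.25 ± 2.26 FPKM. Dpp4 was the most abundant, at 64.1 ± 7.45 and 57.1 ± 3.23 FPKM, and P2rx7 the least, at 0.85 ± 0.338 and 0.66 ± 0.337. The 1 call among 8 genes is 12.5%, beside 11.9% of all genes tested in either direction and 8.77% in the downward direction, so the number of calls was near that of the table as a whole. The groups did not overlap in FPKM for 1 of the 8, again Adora2a, against 32.1% of all genes tested, or 16.8% when counted in the downward direction. The median log2 fold change was -0.20 over the 8 and 0.01 over all genes tested.

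**Figure D1:**
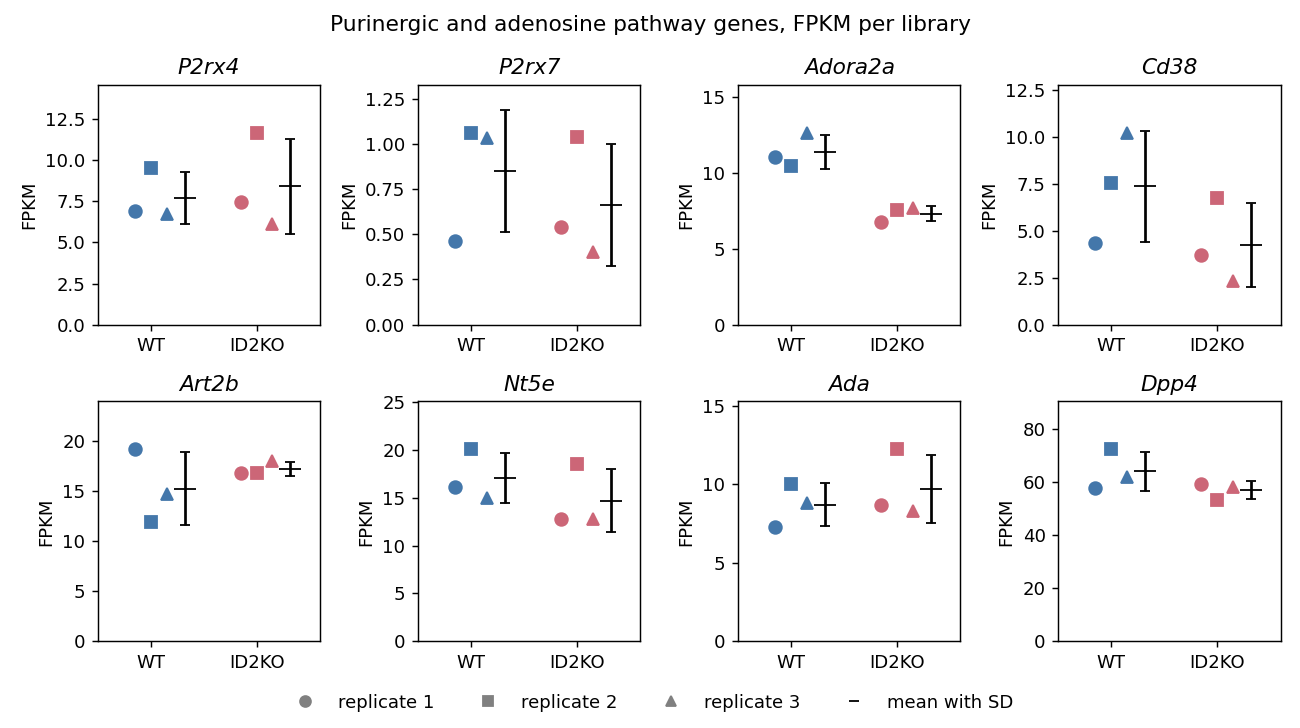
FPKM of each of the 8 genes in every library (vertical axis from 0, with its own scale in each panel), WT in blue and knockout (ID2KO) in red, with symbols for replicates 1 to 3 and black bars for the mean with SD (n = 3). The 3 knockout values of Adora2a lie between 6.74 and 7.68, all below the WT values of 10.47 to 12.64, while the groups overlap for the other genes.

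In order of level over all 6 libraries, Dpp4 (mean 60.6 FPKM) stood above Art2b (16.2), Nt5e (15.9), Adora2a (9.36), Ada (9.23), P2rx4 (8.07), Cd38 (5.81) and P2rx7 (0.755). The lowest library of Dpp4 was above the highest of Art2b, the lowest of Nt5e (12.78) was just above the highest of Adora2a (12.64), and the lowest of Cd38 was above the highest of P2rx7. The other neighbours in this order overlapped in range, so their order was not separated by the spread between libraries.

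Adora2a lies on mm10 chromosome 10 from 75316877 to 75334792. Its levels were 11.06, 10.47 and 12.64 FPKM in WT replicates 1 to 3 and 6.74, 7.54 and 7.68 in knockout, from 243, 233 and 275 counts against 141, 152 and 156. Every knockout library was below every WT library. The highest knockout value was 7.68 and the lowest WT value 10.47, while the WT libraries themselves ranged from 10.47 to 12.64. The log2 fold change was -0.65 (SE 0.144, 95% interval -0.97 to -0.33, adjusted p = 0.0166). Its size was modest in this comparison, since the median fall among the genes called lower was -1.03 and 29.3% of them fell less than Adora2a. The call ended without WT replicate 3 (log2 fold change -0.58, adjusted p = 0.0779), without knockout replicate 1 (-0.60, 0.0623) or without knockout replicate 3 (-0.68, 0.0607), and stood in the other 11 of 14 alternatives. Among these 11 was the fit with the level of B cell markers as a covariate (-0.65, adjusted p = 0.0277). Among libraries with low B cell markers WT replicate 1 had 11.06 FPKM against 6.74 and 7.68 in knockout, and among those with high markers WT had 10.47 and 12.64 against 7.54. Each of these comparisons had only 1 library in 1 of the groups, and the part of B cells in the fall of Adora2a was not tested further. The summed dendritic cell markers were also lower in knockout, and their part in the fall of Adora2a was not tested.

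The adenosine receptor list held 4 genes, and Adora2a was the one with enough signal to test. Adora1 and Adora2b, which encode the A1 and A2B receptors, did not exceed 0.05 and 0.39 FPKM in any library, and Adora3 was listed in none. Over the 6 libraries, the genes whose pattern was most like that of Adora2a were Plp2 (Pearson r = 0.999 on log2(FPKM + 1)), Pola1 (0.998) and Prelid3b (0.996), among 7721 genes with a mean of at least 5 FPKM. Pola1 encodes the catalytic subunit of DNA polymerase alpha, and Plp2 a membrane protein. With 6 libraries that share their 2 groups, 630 of the 7721 genes had r above 0.9, so these 3 names describe a common pattern.

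**Figure D2:**
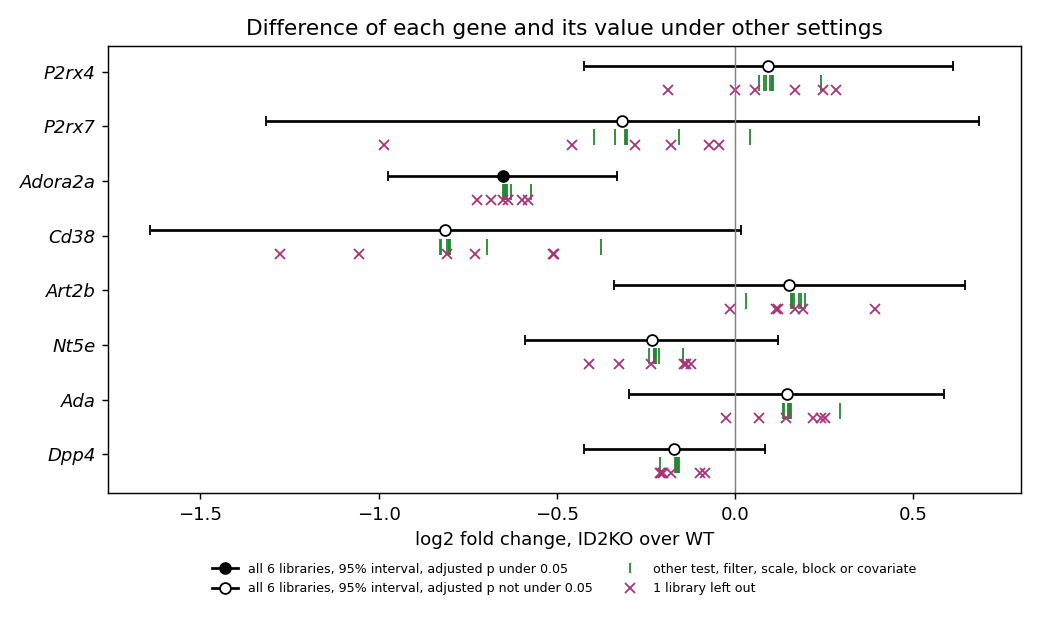
Log2 fold change of knockout over WT (horizontal axis) for each of the 8 genes: circles with 95% intervals from all 6 libraries (filled where adjusted p is under 0.05), green ticks for other tests, filters, scales, the replicate block and the covariate, and crosses for fits without 1 library. Adora2a stays between -0.72 and -0.57 in all of them, whereas Cd38 ranges from -1.28 to -0.38.

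The ATP-gated channels gave no call. P2rx4, which encodes a channel of high ATP affinity found on the surface and in lysosomes, had levels of 6.89, 9.53 and 6.74 FPKM in WT and 7.46, 11.66 and 6.12 in knockout. Replicate 2 was the highest library of both groups and the ranges overlapped widely. Its log2 fold change was 0.09 (SE 0.232, 95% interval -0.42 to 0.61, adjusted p = 0.835), and it changed sign without knockout replicate 2 (-0.19).

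P2rx7, which encodes the channel that opens a large pore and drives shedding and death in T cells under high ATP, was barely detected. Its levels were 0.46, 1.06 and 1.03 FPKM in WT and 0.54, 1.04 and 0.4 in knockout, from 14.98, 22 and 23.96 counts against 10, 27 and 9. It reached the minimum of 1 FPKM in 3 libraries, the number needed to be tested. The log2 fold change was -0.32 (SE 0.449, adjusted p = 0.7), and the 95% interval of -1.32 to 0.68 covers a fall to 0.401 of the WT level and a rise to 1.61 times it, so neither could be told from no change with these libraries. The deposited transcript length of P2rx7, an average over its isoforms, varied between 2317.43 and 3836.15 bases among libraries, while that of Adora2a, Nt5e, Cd38 and Art2b was constant. FPKM of P2rx7 therefore moved also with how its few reads were divided among isoforms. P2rx7 and P2rx4 are neighbours on mm10 chromosome 5 with 15181 bases between them (122643927 to 122692336 and 122707518 to 122729739). No other P2X gene was tested: P2rx1, P2rx2, P2rx3, P2rx5 and P2rx6 stayed at or below 0.28 FPKM in every library.

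Cd38, at 43868809 to 43912374 on mm10 chromosome 5, encodes an ecto-enzyme that degrades NAD and is made by B cells, plasma cells and activated T cells. Its levels were 4.33, 7.55 and 10.21 FPKM in WT and 3.72, 6.72 and 2.3 in knockout. The groups overlapped, and libraries of 1 group differed by more than 2-fold. The log2 fold change was -0.81 (SE 0.372, 95% interval -1.64 to 0.02, adjusted p = 0.191). Without knockout replicate 2 it was -1.28 and passed the threshold (adjusted p = 0.0372), and without WT replicate 3 or knockout replicate 3 it was -0.51 (adjusted p = 0.51 and 0.477).

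The level of Cd38 had the same order over the 6 libraries as the summed B cell markers. The summed level of the 16 B cell markers was 947.81, 3172.56 and 3708.86 FPKM in WT and 702.28, 3030.24 and 631.96 in knockout. Ordered by that sum (knockout replicates 3 and 1, WT replicate 1, knockout replicate 2, WT replicates 2 and 3), Cd38 rose at every step, from 2.3 through 3.72, 4.33, 6.72 and 7.55 to 10.21 FPKM. No other gene of the 8 kept this order in all 6 libraries, and the share of all genes that keep it was not counted. Among the 3 libraries with low B cell markers, WT replicate 1 stood at 4.33 and the knockout libraries at 3.72 and 2.3, and among the 3 with high markers, the WT libraries stood at 7.55 and 10.21 and knockout replicate 2 at 6.72. With the marker level as a covariate the log2 fold change of Cd38 was -0.38 (adjusted p = 0.295). In bulk RNA, fewer cells of a type and less RNA per cell cannot be told apart. P2rx7 and Ada were also higher in each of the 3 libraries with high markers (at least 1.03 and 8.79 FPKM) than in the other 3 (at most 0.54 and 8.7), with a narrow margin for Ada. The share of all genes that separate these libraries in the same way was not counted either. With the covariate P2rx7 stood at 0.04 and Ada at 0.29 (adjusted p = 0.96 and 0.346). The part of B cells in these levels was not tested further.

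**Figure D3:**
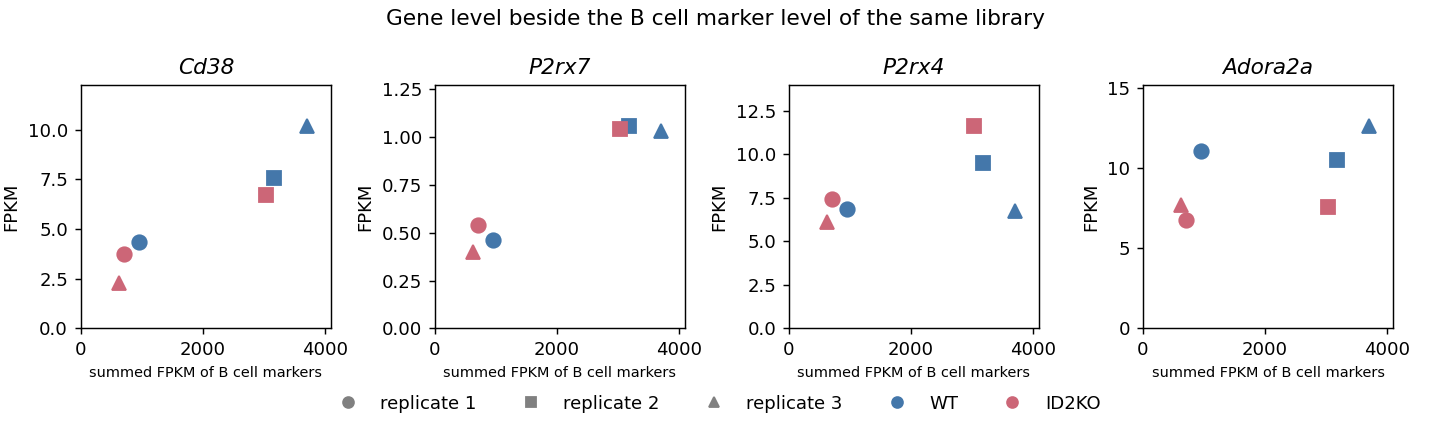
FPKM of Cd38, P2rx7, P2rx4 and Adora2a (vertical axes from 0) against the summed FPKM of 16 B cell markers in the same library (horizontal axis), WT in blue, knockout in red, symbols for replicates 1 to 3. Cd38 increases with the marker sum through all 6 libraries, from 2.3 to 10.21 FPKM, whereas the WT values of Adora2a lie above the knockout values at both low and high marker sums.

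Art2b, at 101575729 to 101585591 on mm10 chromosome 7, had levels of 19.16, 11.92 and 14.67 FPKM in WT and 16.78, 16.77 and 17.99 in knockout. The knockout libraries lay within the range of WT. The log2 fold change was 0.15 (SE 0.221, 95% interval -0.34 to 0.64, adjusted p = 0.705). The gene has a close copy, Art2a, annotated as a transcribed pseudogene in the reference strain, which stood at 3.15 ± 1.27 and 2.93 ± 0.0854 FPKM (log2 fold change -0.12, adjusted p = 0.859). GENCODE transcripts Art2b-201 (870 bases) and Art2a-ps-201 were identical at 87.2% of 877 aligned columns. A stretch of 100 bases from each, bases 328 to 427 of Art2b-201 and 398 to 497 of Art2a-ps-201, is shown because these differences are what lets reads be assigned to 1 of the copies. Capitals mark the 11 bases that differ.
Art2b-201: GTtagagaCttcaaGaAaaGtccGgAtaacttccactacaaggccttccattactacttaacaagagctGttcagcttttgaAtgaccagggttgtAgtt
Art2a-ps-201: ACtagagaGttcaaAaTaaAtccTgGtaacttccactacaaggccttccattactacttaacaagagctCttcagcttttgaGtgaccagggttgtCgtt
A read between 2 such bases fits both copies, and the counts of Art2b were not whole numbers (86.15 to 136.69), so its level is uncertain by the share that was divided. The other ADP-ribosyltransferase genes tested were Art4, from 4.88 ± 1.01 to 4.05 ± 2.75 FPKM (adjusted p = 0.669), and Art3, from 0.853 to 0.927 (adjusted p = 0.929). Of the 6 listed genes 4 were tested and 0 passed by edgeR, beside 11.9% of all genes tested. None of these 4 had an unadjusted p under 0.05 either, against 27.6% of all genes tested, with values of 0.458 to 0.857. Without knockout replicate 2 Art4 passed (-0.97, adjusted p = 0.036).

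Nt5e, at 88327609 to 88372089 on mm10 chromosome 9, had levels of 16.16, 20.05 and 15.02 FPKM in WT and 12.78, 18.55 and 12.78 in knockout. Replicate 2 was again the highest in both groups. The log2 fold change was -0.23 (SE 0.159, 95% interval -0.59 to 0.12, adjusted p = 0.381), which leaves room for a fall to 0.665 of WT. It was below 0 in all 14 alternatives and passed the threshold in none of them.

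The enzyme that acts before CD73 differed more in level. Entpd1 (CD39) had 5.34, 1.3 and 5.98 FPKM in WT and 0.94, 1.67 and 0.79 in knockout, with WT replicate 2 below knockout replicate 2. Its log2 fold change was -1.92 (SE 0.515, adjusted p = 0.0379). The call ended without WT replicate 1 (adjusted p = 0.0921), WT replicate 3 (0.149), knockout replicate 1 (0.123) or knockout replicate 3 (0.16), by limma on log2(FPKM + 1) (0.112) or log2(FPKM + 0.1) (0.117), and with the replicate block (0.106). In 2 of 3 WT libraries Entpd1 was thus several times its knockout level, and in the remaining one it was at the knockout level. The difference between the fall of Entpd1 and that of Nt5e was not tested. Of the other ecto-enzymes, Enpp1, which releases pyrophosphate from ATP, went from 1.98 ± 0.907 to 2.49 ± 0.479 FPKM (adjusted p = 0.539), and Bst1, the relative of Cd38, did not exceed 0.49 FPKM. Of the 10 genes on that list 4 were tested, and Entpd1 was the 1 that passed, beside 11.9% of all genes tested.

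Ada, at 163726571 to 163750239 on mm10 chromosome 2, had levels of 7.3, 10.05 and 8.79 FPKM in WT and 8.7, 12.23 and 8.28 in knockout. Replicate 2 was the highest of both groups and the ranges overlapped. The log2 fold change was 0.14 (SE 0.198, 95% interval -0.30 to 0.59, adjusted p = 0.687), and it was -0.03 without knockout replicate 2. Dpp4, at 62330073 to 62412315 on the same chromosome, had levels of 58, 72.4 and 61.88 FPKM in WT and 59.48, 53.42 and 58.4 in knockout. With 1822.04 to 2770.34 counts per library it was the best measured of the 8, and its log2 fold change of -0.17 (SE 0.113, adjusted p = 0.374) had a 95% interval of -0.42 to 0.08. That interval reaches from 0.746 to 1.06 times the WT level. In the GENCODE annotation 232 exon bases of Dpp4 are shared with an antisense gene, Gm13561, and the sources used here do not say whether reads were counted by strand.

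Id2 binds E proteins, which recognise the E-box CANNTG, and E proteins prefer its forms CAGCTG and CACCTG. The promoter windows of the 8 genes were therefore read for these letters on both strands (CACCTG reads CAGGTG on the other strand, and both forms are also counted as CANNTG). RefSeq windows of 300 bases on GRCm38.p6, most of each before an annotated start and its end just after it, matched 7 of the 8 genes, all but Adora2a, in 8 windows. CANNTG was present in 8 of the 8 windows and in 72.3% of the 32817 windows of all genes. CAGCTG was in 1 of the 8, that of Art2b, and in 16.3% of all windows, and CACCTG or CAGGTG in 1, that of Ada, which held it 2 times, and in 20.2% of all. These windows are shown for Ada and Art2b, which have the preferred forms and passed no test, for Cd38, which has 3 E-boxes of other forms, and for Entpd1, the enzyme that acts before CD73, whose window holds both preferred forms. Each is printed along the strand of its gene, with every CANNTG in capitals.
Ada, chr2:163750190-163750489, minus strand: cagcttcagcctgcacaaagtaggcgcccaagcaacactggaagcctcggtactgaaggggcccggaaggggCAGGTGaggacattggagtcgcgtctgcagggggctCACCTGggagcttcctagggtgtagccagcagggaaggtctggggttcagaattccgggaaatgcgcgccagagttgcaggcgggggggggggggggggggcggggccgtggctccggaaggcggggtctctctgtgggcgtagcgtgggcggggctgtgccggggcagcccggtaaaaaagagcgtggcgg
Art2b, chr7:101581112-101581411, minus strand: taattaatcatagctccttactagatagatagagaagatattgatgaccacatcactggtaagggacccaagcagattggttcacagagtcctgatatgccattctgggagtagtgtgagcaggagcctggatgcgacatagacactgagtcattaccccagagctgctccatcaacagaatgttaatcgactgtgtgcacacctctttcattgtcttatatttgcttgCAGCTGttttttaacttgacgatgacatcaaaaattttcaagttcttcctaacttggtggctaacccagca
Cd38, chr5:43868559-43868858, plus strand: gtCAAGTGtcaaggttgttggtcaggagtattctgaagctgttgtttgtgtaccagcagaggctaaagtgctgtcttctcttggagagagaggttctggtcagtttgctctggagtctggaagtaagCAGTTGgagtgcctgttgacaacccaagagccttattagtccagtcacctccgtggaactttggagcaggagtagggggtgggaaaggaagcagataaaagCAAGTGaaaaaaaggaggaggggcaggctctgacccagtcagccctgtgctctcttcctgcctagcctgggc
Entpd1, chr19:40612116-40612415, plus strand: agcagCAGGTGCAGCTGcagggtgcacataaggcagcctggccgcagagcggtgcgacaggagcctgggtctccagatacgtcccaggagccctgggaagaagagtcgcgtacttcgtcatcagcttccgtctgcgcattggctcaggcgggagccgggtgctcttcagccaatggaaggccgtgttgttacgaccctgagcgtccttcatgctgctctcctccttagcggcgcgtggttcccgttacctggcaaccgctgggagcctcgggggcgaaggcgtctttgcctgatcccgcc
The window of Entpd1 does not stand for the called pathway genes. Of 15 windows of 12 of those 13 genes, 66.7% held CANNTG, 26.7% CAGCTG and 13.3% CACCTG or CAGGTG, and the windows of Ahcy, Hprt, Dck and Panx1 held no CANNTG. In the Entpd1 window CAGGTG and CAGCTG adjoin each other, and a second window of that gene, at 40659520 to 40659819, held no CANNTG. A match describes the letters of a window and is not a measured binding site.

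The rest of the pathway was read from lists of 92 further genes sorted by role. Of these 55 were tested, 3 rose and 10 fell, and their median log2 fold change was -0.04. The share past the threshold was 23.6%, against 11.9% of all genes tested, with 3.14% of all genes called higher and 8.77% lower. The lists were chosen with earlier results of these data known, so this share describes the lists only. No test of the lists against other genes was run. The 37 genes not tested did not exceed 1.4 FPKM in any library, and 8 of them were listed in none. The count of 13 calls was 3 without knockout replicate 3, 4 without knockout replicate 1, 5 without WT replicate 3, 7 without WT replicate 1, 11 without WT replicate 2 and 18 without knockout replicate 2.

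Nucleoside transporters, which take adenosine and other nucleosides into the cell, had 2 of 5 tested genes higher and none lower by edgeR. Of all genes tested, 3.14% were called higher and 8.77% lower. Slc28a2b had 11.92, 13.95 and 17.72 FPKM in WT and 55.97, 54.91 and 55.25 in knockout, and Slc28a2, the concentrative transporter of purine nucleosides, 38.46, 31.14 and 41.31 against 51.17, 56.93 and 52.1. The groups did not overlap for either gene. The log2 fold changes were 1.92 (SE 0.133) and 0.51 (SE 0.123, adjusted p = 0.0236). GENCODE transcripts of both were identical at 95.9% of aligned bases (Slc28a2b is named Gm14085 there), so the division of reads between them is uncertain. Slc28a2b stayed past the threshold in all 14 alternatives, and the call of Slc28a2 ended when WT replicate 2 (adjusted p = 0.055), knockout replicate 1 (0.0568) or knockout replicate 3 (0.0793) was left out. The equilibrative transporter gene Slc29a1 stood at 42.28 and 35.02 FPKM (adjusted p = 0.112).

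Enzymes of adenosine and purine salvage other than Ada had 4 of 15 tested genes lower and 0 higher by edgeR, with a median of -0.15. The share of all genes tested that were called lower was 8.77%. At an unadjusted p under 0.05 there were 6 of 15, these 4 with Pnp2 and Aprt, all below 0, beside 27.6% of all genes tested. Hprt, which recycles hypoxanthine and guanine, fell from 128 ± 12.3 to 92.6 ± 4.91 FPKM (log2 fold change -0.49, adjusted p = 0.0165). Dck, which phosphorylates deoxynucleosides, fell from 36.8 ± 6.6 to 25.1 ± 1.87 (-0.57, 0.0234). Pnp, which splits inosine, the product of adenosine deaminase, fell from 20.8 ± 2.02 to 15.02 ± 0.832 (-0.48, 0.024), and Ahcy, which releases adenosine from S-adenosylhomocysteine, from 25.4 ± 2.02 to 18.4 ± 1.97 (-0.49, 0.0296). The groups of these 4 genes did not overlap. Adenosine kinase, encoded by Adk, stood at 26.8 ± 5.56 and 34.7 ± 7.18 FPKM (0.38, adjusted p = 0.234), and passed without knockout replicate 2 (0.56, 0.0399). The fall kept its direction in every alternative, and without 1 library the log2 fold change lay between -0.58 and -0.43 for Hprt, -0.69 and -0.43 for Dck, -0.56 and -0.43 for Pnp and -0.56 and -0.39 for Ahcy. The call ended in some of these fits of 5 libraries. Hprt lost its call without WT replicate 1 (0.0576), WT replicate 3 (0.0716), or knockout replicates 1 (0.0573) or 3 (0.0983), and Dck without the same libraries (0.0582, 0.0922, 0.0604 and 0.128) and, with all 6, by limma on log2(FPKM + 0.1) (0.0521). Pnp lost it without WT replicate 1 (0.07), WT replicate 2 (0.0792), or knockout replicates 1 (0.0798) or 3 (0.069), and Ahcy without WT replicate 1 (0.0846), WT replicate 3 (0.114) or knockout replicate 3 (0.158).

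**Figure D4:**
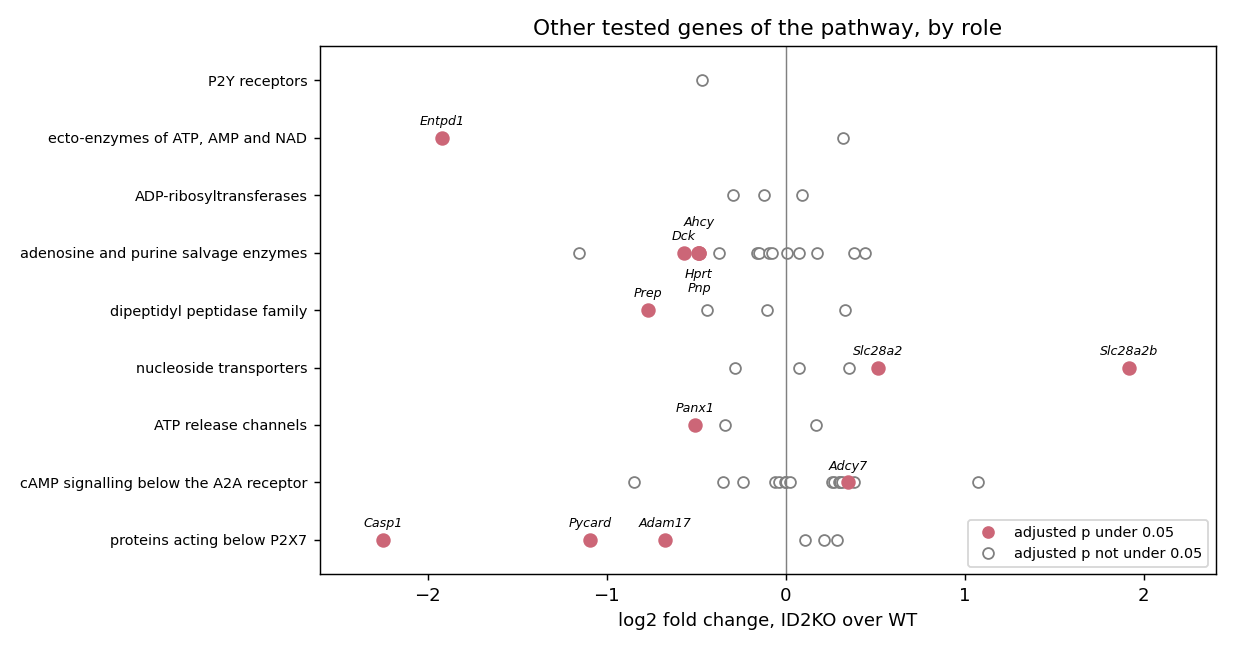
Log2 fold change of knockout over WT (horizontal axis) of the 55 tested pathway genes other than the 8, in rows by role, with filled red circles for adjusted p under 0.05 and open circles for the rest. Slc28a2b lies farthest to the right at 1.92, and Casp1 and Entpd1 farthest to the left at -2.25 and -1.92.

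Genes that act below P2X7 had 3 of 6 tested members lower and 3 not past the threshold, beside 8.77% of all genes tested called lower. The list held 8 genes. Of the untested ones, the inflammasome gene Nlrp3 was at 0 FPKM in every library and Xkr8 was below the filter. Casp1, which encodes the inflammasome protease, had 7.89, 18.88 and 23.02 FPKM in WT and 3.44, 3.91 and 3.13 in knockout (log2 fold change -2.25, SE 0.346, adjusted p = 0.00251). Pycard, the adaptor that links sensors to caspase-1, had 97.19, 53.75 and 72.87 against 39.18, 30.41 and 36.76 (-1.09, SE 0.213, adjusted p = 0.00906). Both were lower in every knockout library than in any WT library and stayed past the threshold in all 14 alternatives. The summed dendritic cell markers were lower in the same libraries, although Xcr1 and Siglech were not. The part of dendritic cells in these falls and in that of Entpd1 was not tested. Adam17, a protease that sheds surface proteins, fell from 22.3 ± 3.75 to 14.2 ± 2.55 FPKM (-0.67, adjusted p = 0.019), a call lost when WT replicate 3 (0.0851) was left out, or knockout replicates 1 (0.0743) or 3 (0.105), and by limma on log2(FPKM + 0.1) (0.0501). Its relative Adam10, from 33.55 to 36.47 FPKM, and the scramblase gene Ano6, from 16.81 to 20.68, did not pass (adjusted p = 0.541 and 0.122). Gsdmd, which encodes gasdermin D, did not pass either, from 45.14 to 52.78 FPKM (0.177). At an unadjusted p under 0.05 there were 5 of 6, with 3 below 0 and 2 above, Ano6 and Gsdmd, beside 27.6% of all genes tested.

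Among ATP release genes, Panx1, which encodes the pannexin channel, fell from 42.4 ± 5.59 to 30.1 ± 1.61 FPKM (log2 fold change -0.51, adjusted p = 0.015). That call ended when WT replicate 3 (0.066) was left out, or knockout replicates 1 (0.0505) or 3 (0.092). Lrrc8a, a subunit of volume-regulated channels, and Slc17a9, the vesicular nucleotide transporter gene, did not pass (0.118 and 0.513).

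The cAMP machinery below the A2A receptor had 1 of 16 tested genes higher and 0 lower by edgeR, and a median of 0.14. Of all genes tested, 3.14% were called higher and 8.77% lower. At an unadjusted p under 0.05 there were 8 of 16, with 7 above 0 and 1 below, beside 27.6% of all genes tested. Adcy7, which encodes an adenylyl cyclase of immune cells, rose from 39.7 ± 1 to 50.9 ± 3.8 FPKM (log2 fold change 0.35, adjusted p = 0.0495). This call lay at the threshold: it ended without WT replicates 1, 2 or 3 (0.0827, 0.127 and 0.122) or knockout replicates 1 or 3 (0.0801 and 0.201), with the replicate block (0.0599), with the B cell covariate (0.0909) and by limma on log2(FPKM + 0.1) (0.0515). Just outside stood Prkar2a, a regulatory subunit gene of protein kinase A, from 2.66 ± 0.306 to 1.49 ± 0.358 (adjusted p = 0.0505), and Pde8a, a phosphodiesterase gene, from 0.807 ± 0.19 to 1.73 ± 0.461 (0.0562). Prkar2a passed by DESeq2 (0.0374) and without a filter (0.0491), and Pde8a with the B cell covariate (0.0379). None of the 4 most abundant genes of this list passed. Prkar1a stood at 278 ± 3.55 and 269 ± 12.8 FPKM (log2 fold change -0.06, adjusted p = 0.729) and Gnas, the stimulatory G protein gene, at 117 ± 10.1 and 101.2 ± 16.8 (-0.24, 0.335). Crem, a transcription factor gene of the cAMP response, stood at 181 ± 44.8 and 238 ± 37.0 (0.38, 0.157), and Pde4b, a phosphodiesterase gene, at 99.7 ± 5.33 and 126 ± 8.002 (0.32, 0.0915). Crem passed with the replicate block (0.40, 0.0417) and without WT replicate 2 (0.59, 0.0285), and Pde4b by DESeq2 (0.0392) and without knockout replicate 2 (0.0409).

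The call on the dipeptidyl peptidase list was Prep, a prolyl peptidase gene related to Dpp4, while Dpp4, Dpp7, Dpp8 and Dpp9 did not pass. Prep fell from 25.2 ± 4.68 to 14.98 ± 3.46 FPKM (log2 fold change -0.77, adjusted p = 0.0195). Its call was lost when WT replicate 3 (0.0884) was left out, or knockout replicates 1 (0.0625) or 3 (0.0715). Dpp8 and Dpp7 stood outside the threshold (-0.44 and 0.33, adjusted p = 0.0841 and 0.298). Of 7 P2Y receptor genes 1 was tested, P2ry14, a receptor for UDP-glucose, with 3.6, 6.02 and 6.25 FPKM in WT and 2.58, 5.35 and 3.66 in knockout (adjusted p = 0.338). The ADP receptor gene P2ry12 was below the filter, at 0.96, 0.65 and 1.23 FPKM against 0.37, 0.11 and 0.22, and passed in the fit without a filter (adjusted p = 0.0355). So did Pde4a, at 1.15, 0.53 and 0.78 against 0.21, 0.22 and 0.22 (0.00779), and Slc29a4, with 5, 7 and 8 counts in WT and 0 in each knockout library (0.0241).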

How the data were processed

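RNA-seq libraries of 3 WT and 3 knockout samples followed Illumina's usual preparation, per the labels' protocols. CASAVA, Bowtie2 and RSEM, with no version, and mm10 are named per the submitters' processing notes; the sources used here give no strand setting. The authors deposited for each gene an expected count and an FPKM value, per the file headers; a gene missing from a table was taken as 0. About 25.0% to 26.2% of the expected counts were not whole (tolerance 0.005). Tables were joined by NCBI gene number in pandas 2.3.3, and 16707 of 16749 numbers had a symbol in RefSeq GRCm38.p6.

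Expected counts were rounded, scaled by TMM and tested two-sided with edgeR 4.0.16 in R 4.3.3 on the 10890 genes that reached 1 FPKM in 3 or more of the 6 libraries; 5859 genes were left out. The standard error is the log2 fold change divided by the square root of F, and intervals are at the 95% level. On simulated counts of these 10890 genes with 200 changed, edgeR recovered 84% of the 2-fold and 98% of the 4-fold changes, with 9 false calls among 191. The simulation gave every gene the same relative spread between libraries (biological coefficient of variation 0.156). These shares therefore need not hold for genes that vary more, such as Cd38 and Entpd1. Pairs of libraries within a group had chi-square values over their degrees of freedom of 5.62 to 18.6, so none was a duplicate. Alternatives were DESeq2 1.42.0, its size factors, limma 3.58.1 on log2 FPKM with pseudocounts of 1 and 0.1, no filter, a stricter filter of 5 FPKM, a block for the replicate number, B cell markers as a covariate (the mean log2(FPKM + 1) of the 16) and each library left out.

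The 8 genes, the pathway lists and the marker lists were chosen with earlier results of these data known. The genes named are the 8, Id2, pathway genes past the threshold, the nearest to it where fewer than 2 of a list passed, and the 3 patterns most like a called gene. Others were named after their values were seen: Cd8a, Slc29a1, Adk, Pnp2, Aprt, Adam10, Ano6, Gsdmd, Prkar1a, Gnas, Crem, Pde4b, Art3, Bst1, single markers and genes below the filter.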

Additional observations from a re-analysis of the deposited data

How the results depend on the processing

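Of 111 alternative fits of the 8 genes, 102 kept direction and side of the threshold. P2rx7 had no fit at a minimum of 5 FPKM. Adora2a lost its call in 3 fits without 1 library and Cd38 gained one in 1. The sign turned for P2rx7 with the B cell covariate (0.043), and among fits without 1 library P2rx4 ranged from -0.19 to 0.28, Ada from -0.026 to 0.25 and Art2b from -0.014 to 0.39; none of these passed. Without 1 library the number of the 8 past the threshold was 0 to 2 (1 in all 6), of the other pathway genes 3 to 18 (13), and of all genes 601 (without knockout replicate 3) to 1562 (1297). Of 181 alternative fits of the 13 called pathway genes, 44 lost the call and none turned. Replicate numbers were tried as a block although they share only a number: deviations of same-numbered libraries correlated at 0.135, 0.0732 and -0.0702, and WT replicate 1 correlated best with knockout replicate 3 (0.161). With the replicate block 1183 genes passed, Adora2a still did (adjusted p = 0.0311), Entpd1 and Adcy7 did not and Crem did; no other call among the 8 or the other pathway genes changed. P2rx7 rested on 9 to 27 counts a library.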
